A study of Homo sapiens with 3 samples.

Results

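The aldo-keto reductase family 1 was described across 3 lines of human C4-2B prostate cancer cells. Its members were the 9 genes AKR1A1, AKR1B1, AKR1B10, AKR1C1, AKR1C2, AKR1C3, AKR1C4, AKR1D1 and AKR1E2, taken with every probe set that the array annotation pairs with one of these symbols. 7 of the 9 had a probe set, 16 probe sets in all, of 19775 genes and 54613 non-control probe sets. 15 of the 16 were annotated to 1 gene, and 1 was annotated to AKR1C1 and AKR1C2 together. AKR1A1 and AKR1B1, the aldehyde and aldose reductases, were not analysed here because the annotation used names no probe set for them.

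C4-2B is an established castration-resistant line that goes back to LNCaP. Its parental cells grew without drug, C4-2B MDVR cells were maintained in 20 µM enzalutamide, an antagonist of the androgen receptor, and C4-2B AbiR cells in 10 µM abiraterone acetate, an inhibitor of androgen synthesis through CYP17A1. Each line was read on 1 Affymetrix HG-U133 Plus 2.0 array, and each resistance model is 1 subline, so drug, subline and array cannot be told apart and no test was possible. The deposited values are log2 RMA values that had been centred within each probe set, which removes the expression level. A value near 0 therefore says nothing on whether a gene is expressed, and values were compared between arrays only, never between genes. The labelled cell type could not be checked by marker levels for the same reason. Among luminal prostate markers, KLK3, the gene of prostate-specific antigen, was at −4.07 in MDVR and −3.17 in AbiR (log2 difference from parental), and KLK2, a related kallikrein, at −1.29 and −2.12. The other 5 luminal markers with a value, TMPRSS2, FOLH1, KRT8, KRT18 and HOXB13, stayed below 2-fold and ranged from −0.45 to 0.37 over both lines. Of the neuroendocrine markers ENO2 was at 2.80 in MDVR and 2.85 in AbiR, and CHGA, SYP and INSM1 ranged from −0.35 to 0.11 over both lines. The basal marker KRT5 was at −0.23 in MDVR and −0.10 in AbiR, KRT14 at 0.0061 and −0.40, and the part of any of these cells in the AKR1 values was not tested.

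Family 1 enzymes are mostly NADPH-dependent reductases of carbonyl groups on steroids, prostaglandins, sugars and lipid aldehydes. The AKR1C enzymes act as ketosteroid reductases and set the balance of active and inactive steroid in a target tissue. AKR1C3 converts androstenedione to testosterone and also makes prostaglandin F, which is why it is followed in castration-resistant prostate cancer, whereas AKR1C2 turns dihydrotestosterone into a weak androgen and AKR1C1 inactivates progesterone.

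The 250 bases before the annotated start are shown for the AKR1C genes because AKR1C1, AKR1C2 and AKR1C3 were the members that differed by 2-fold or more between the arrays. AKR1C4, which did not reach 2-fold, is shown beside them. Each window lies before its own annotated start, and the downstream AKR1C3 window lies past the upstream AKR1C3 start. The likeness of the windows was not used in reading the probe sets. Transcript and probe sequences were not compared. The sequences are those of RefSeq on GRCh38.p14, read 5′ to 3′ on the strand of the gene, and capitals mark a CCAAT box, which here lies on the opposite strand and reads ATTGG. They lie at chr10:4963165-4963414 on the plus strand for AKR1C1, chr10:5003858-5004107 on the minus strand for AKR1C2, chr10:5048531-5048780 and chr10:5094164-5094413 on the plus strand for the upstream and the downstream start of AKR1C3, and chr10:5196587-5196836 on the plus strand for AKR1C4.
AKR1C1: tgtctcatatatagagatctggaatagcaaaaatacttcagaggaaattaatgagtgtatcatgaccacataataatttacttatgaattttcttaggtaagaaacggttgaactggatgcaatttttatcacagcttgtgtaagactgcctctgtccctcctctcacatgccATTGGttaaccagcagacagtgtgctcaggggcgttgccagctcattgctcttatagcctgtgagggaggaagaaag
AKR1C2: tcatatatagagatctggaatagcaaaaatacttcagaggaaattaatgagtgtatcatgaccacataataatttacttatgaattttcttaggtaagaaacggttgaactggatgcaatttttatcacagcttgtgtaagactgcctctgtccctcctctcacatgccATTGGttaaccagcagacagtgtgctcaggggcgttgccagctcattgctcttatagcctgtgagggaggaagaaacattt
AKR1C3 upstream start: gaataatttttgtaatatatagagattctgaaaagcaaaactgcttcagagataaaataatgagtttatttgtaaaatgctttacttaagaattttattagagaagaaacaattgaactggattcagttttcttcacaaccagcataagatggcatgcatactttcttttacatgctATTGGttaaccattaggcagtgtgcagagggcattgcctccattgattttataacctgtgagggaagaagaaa
AKR1C3 downstream start: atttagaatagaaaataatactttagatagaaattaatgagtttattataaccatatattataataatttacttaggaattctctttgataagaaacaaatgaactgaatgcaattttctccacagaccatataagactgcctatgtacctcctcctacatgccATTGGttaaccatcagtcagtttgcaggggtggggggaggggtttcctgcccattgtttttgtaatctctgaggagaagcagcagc
AKR1C4: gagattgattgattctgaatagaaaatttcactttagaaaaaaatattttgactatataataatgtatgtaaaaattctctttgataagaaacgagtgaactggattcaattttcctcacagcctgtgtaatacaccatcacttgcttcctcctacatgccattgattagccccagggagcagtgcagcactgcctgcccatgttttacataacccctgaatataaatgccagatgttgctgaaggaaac
The AKR1C1 and AKR1C2 sequences were 99.6% identical, with 245 of 246 aligned bases shared. The upstream AKR1C3 start was 76.8% identical to AKR1C1 and 77.2% to AKR1C2, and the downstream start was 78.6% and 78.7% identical to them. The pair of AKR1C3 starts shared 75.7% of aligned bases, and AKR1C4 shared between 67.7% and 73.4% with the other promoters.

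A CCAAT box was sought on both strands as the letters CCAAT. It lay 77 to 73 bases before the start in AKR1C1, 81 to 77 in AKR1C2, and 73 to 69 and 86 to 82 before the AKR1C3 starts, and the letters were not found in the AKR1C4 window. These letters occurred in 32.0% of 35116 promoter windows of the same length. The core letters of an antioxidant response element, TGACNNNGC, and of an AP-1 site, TGANTCA, matched none of the 5 windows, against 10.9% and 6.57% of all windows. These matches describe letters only and say nothing on binding.

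AKR1C3 stood far higher on the MDVR array than on the other two. Its 1 probe set, 209160_at, read −0.50 in parental, 3.52 in MDVR and −0.49 in AbiR cells (centred log2 values). MDVR thus exceeded parental by 4.02 on the log2 scale, a 16.2-fold difference, and exceeded AbiR by 4.01, or 16.1-fold. Only 8 of 19775 genes had a higher value in MDVR minus parental, and 5 in MDVR minus AbiR. AbiR and parental differed by 0.0055. With a single probe set there is no second reading of AKR1C3 within these arrays.

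**Figure D1:**
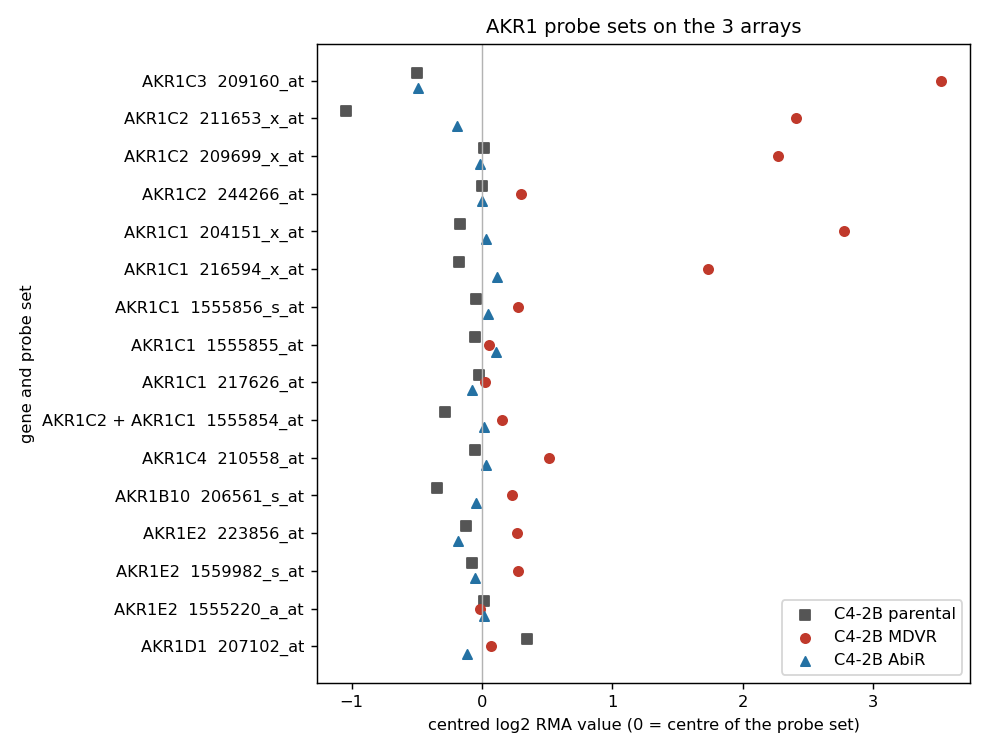
Centred log2 value of each of the 16 family 1 probe sets on the parental, MDVR and AbiR arrays, 1 point per array. The AKR1C3 probe set and the _x_at probe sets of AKR1C1 and AKR1C2 are highest on the MDVR array, at 1.73 or above. The next highest point there is AKR1C4, at 0.51.

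AKR1C2 had 3 probe sets, which did not read alike. The probe set 211653_x_at was at −1.04 on the parental, 2.41 on the MDVR and −0.19 on the AbiR array, a 10.9-fold excess of MDVR over parental and a 1.80-fold excess of AbiR over parental. For 209699_x_at the values were 0.017, 2.27 and −0.017 in that order, 4.76-fold higher in MDVR than in parental. The third, 244266_at, was at −0.00082, 0.30 and 0.00082, so that MDVR lay above both other arrays by 0.30 on the log2 scale. All 3 were highest on the MDVR array, but one of them by less than the largest spiked control difference. The mean over the 3 gave a log2 excess over parental of 2.00 ± 1.59 in MDVR and 0.27 ± 0.50 in AbiR, and 1.73 ± 1.25 for MDVR over AbiR ( SD between probe sets, n = 3).

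AKR1C1 had 5 probe sets of its own. The probe set 204151_x_at was at −0.17 on the parental, 2.77 on the MDVR and 0.028 on the AbiR array, with MDVR 7.69-fold above parental. 216594_x_at was at −0.17, 1.73 and 0.11, a 3.75-fold difference between MDVR and parental. These were the only AKR1C1 probe sets past 2-fold. For 1555856_s_at the values were −0.045, 0.27 and 0.045, a log2 difference of 0.32 between MDVR and parental. For 1555855_at they were −0.054, 0.054 and 0.11, and for 217626_at −0.025, 0.025 and −0.073, with differences of 0.11 and 0.049. The gene mean exceeded parental by 1.06 ± 1.30 on the log2 scale in MDVR and 0.14 ± 0.13 in AbiR, and MDVR exceeded AbiR by 0.93 ± 1.22 ( SD between probe sets, n = 5). The probe set shared by AKR1C1 and AKR1C2, 1555854_at, was at −0.28 on the parental, 0.15 on the MDVR and 0.018 on the AbiR array, and differed by 0.43 between MDVR and parental.

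The division ran along the array's own probe set classes. A name ending in _x_at marks a probe set whose probes can match other sequences too. The 4 _x_at probe sets of AKR1C1 and AKR1C2 were 3.75- to 10.9-fold higher in MDVR than in parental, and all 4 passed 2-fold, as did 1.73% of the 2998 single-gene _x_at probe sets of the array. The other 5 probe sets of both genes, the shared one included, were 1.03- to 1.35-fold higher and 0 passed 2-fold. In AbiR minus parental the classes ran from −0.034 to 0.85 and from −0.049 to 0.30 on the log2 scale, and in MDVR minus AbiR from 1.62 to 2.74 and from −0.055 to 0.30. With the _x_at probe sets left out, an alternative added after seeing the data, AKR1C1 was at 0.16 and AKR1C2 at 0.30 in MDVR minus parental. AKR1C3, whose transcript is closely related, was at 4.02 in MDVR minus parental and 0.0055 in AbiR minus parental. How much of the _x_at signal came from RNA of another AKR1C gene was not tested. Whether the other 5 probe sets detected their transcripts was not tested either. The AKR1C1 and AKR1C2 values therefore remain uncertain as readings of single genes.

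Such disagreement between probe sets was uncommon among all genes with as many probe sets, whether or not they differed between the arrays. The SD of AKR1C1 in MDVR minus parental was exceeded by 7 of 706 genes with 5 probe sets (0.992%), which had a median SD of 0.27. The SD of AKR1C2 was exceeded by 7 of 2778 genes with 3 probe sets (0.252%), with a median SD of 0.21. By contrast, the SD of AKR1E2, 0.24, was exceeded by 42.8% of the genes with 3 probe sets. Of the genes with large MDVR differences described below, HGF, CD200 and DAPK1 had SDs of 1.83, 1.33 and 2.09, and LAMB1 of 0.53. Whether the spread of AKR1C1 and AKR1C2 was unusual for genes that differ by 2-fold or more was not tested.

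**Figure D2:**
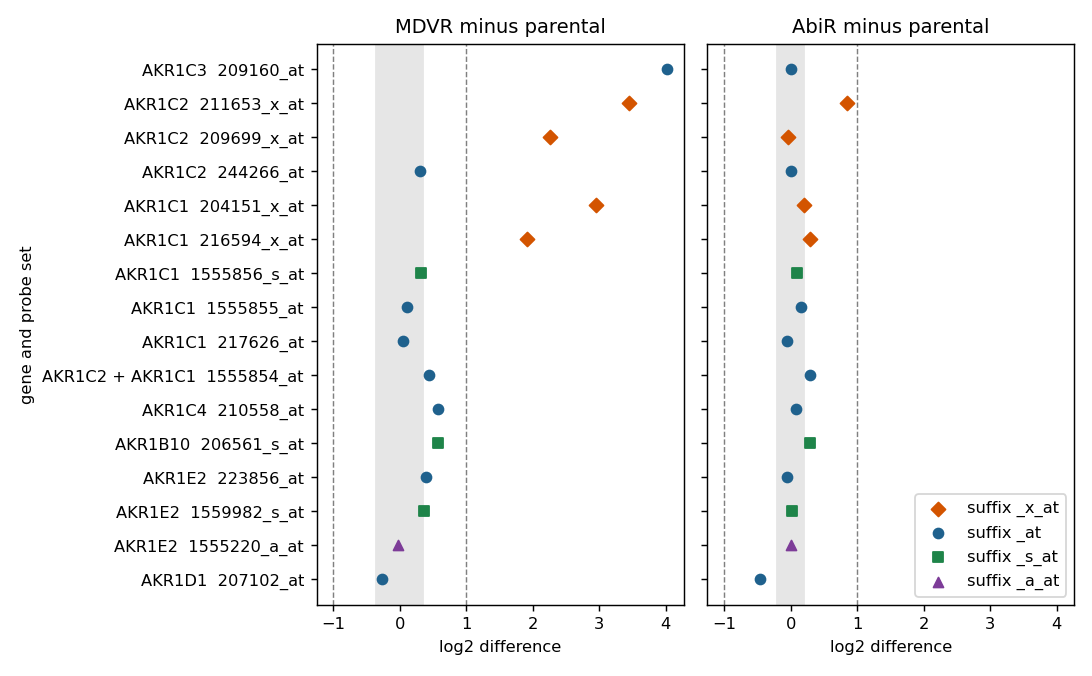
Log2 difference of each family 1 probe set from the parental array, with MDVR and AbiR shown separately and each member's probe sets grouped. The 4 _x_at probe sets of AKR1C1 and AKR1C2 lie between 1.91 and 3.45 in MDVR, apart from the other probe sets of the same genes, which lie between 0.049 and 0.43.

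AKR1C4, a hydroxysteroid dehydrogenase known chiefly from the liver, was at −0.057 on the parental, 0.51 on the MDVR and 0.027 on the AbiR array. MDVR exceeded parental by 0.57 on the log2 scale, or 1.49-fold, and AbiR exceeded parental by 0.084. The MDVR difference was larger than any of 45 spiked bacterial controls, whose differences reached 0.35 in size, but stayed below 2-fold. The 4 hepatocyte markers ALB, APOA1, TTR and SERPINA1 differed by 0.0084 to 0.48 in MDVR minus parental.

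AKR1B10 reduces retinaldehyde and lipid aldehydes. Its probe set, 206561_s_at, was at −0.34 on the parental, 0.23 on the MDVR and −0.049 on the AbiR array. It was 1.49-fold higher in MDVR than in parental, and higher by 0.29 on the log2 scale in AbiR. Both resistant lines lay above the parental line, and the order of the arrays was the same as for AKR1C4.

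AKR1D1, which reduces the double bond of steroids in bile acid synthesis and steroid hormone breakdown, was the member whose probe set was highest on the parental array. Its values were 0.35 on the parental, 0.072 on the MDVR and −0.11 on the AbiR array. AbiR was lower than parental by 1.37-fold, a log2 difference of −0.46, and 4.19% of genes were lower still in that comparison. In MDVR minus parental the difference was −0.27, within the range of the spiked controls.

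AKR1E2, a reductase of anhydrofructose, was read by 3 probe sets. The first, 1559982_s_at, was at −0.078 on the parental, 0.28 on the MDVR and −0.055 on the AbiR array, and 223856_at was at −0.12, 0.27 and −0.18. The remaining 1555220_a_at was at 0.017, −0.017 and 0.017. The first pair were thus highest on the MDVR array and the last was not. The mean was 0.24 ± 0.24 for MDVR minus parental and −0.012 ± 0.042 for AbiR minus parental (log2, SD between probe sets, n = 3).

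Over the family, 3 of 7 genes were at least 2-fold higher in MDVR than in parental, namely AKR1C1, AKR1C2 and AKR1C3, and 0 were at least 2-fold lower. Among all genes 1.65% were higher and 1.67% lower by that measure. By probe set the count was 5 of 16, against 1.52% of all probe sets. The _x_at probe sets of AKR1C1 and AKR1C2 made up 4 of these 5. Without the _x_at probe sets 1 gene remained, AKR1C3. The members' median log2 difference was 0.57, beside 0.044 over all genes, and 6 of 7 members lay above 0, as did 57.4% of all genes. Without the _x_at probe sets the members' median was 0.30, the value of AKR1C2.

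In AbiR minus parental, 0 of 7 genes were 2-fold higher and 0 were 2-fold lower, where 1.07% and 0.804% of all genes were. The probe set count was also 0 of 16, beside 1.33% of all probe sets. The median of the members was 0.084 and that of all genes −0.011. Without the _x_at probe sets the members' median was 0.0055, the value of AKR1C3. The probe set 211653_x_at of AKR1C2 gave the highest member value in this comparison, 0.85.

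In MDVR minus AbiR, which shares an array with each of the other comparisons, AKR1C2 and AKR1C3 were at least 2-fold higher, 2 of 7 genes beside 0.875% of all genes. 5 of 16 probe sets passed, 4 of them the _x_at probe sets of AKR1C1 and AKR1C2, beside 0.890% of all probe sets. The median of the members was 0.49, against 0.054 over all genes. Without the _x_at probe sets the members' median was 0.28, the value of AKR1B10. Of the 16 probe sets, 13 were highest on the MDVR array, 2 on the AbiR array and 1 on the parental array, where 43.0% of all probe sets were highest on the MDVR array. The spiked controls had an SD of 0.13, 0.10 and 0.12 in these comparisons, taken in the order just described. Member probe sets beyond the largest control difference numbered 10 above in the first, 4 above and 1 below in the second, and 7 above in the third.

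The AKR1C genes and AKR1E2 lie side by side on chromosome 10, and 0 of the measured genes around them reached 2-fold. In RefSeq order the measured genes ran LINC00702, LINC00703, LINC00705, AKR1E2, the pseudogene AKR1C6P, AKR1C1, AKR1C2, AKR1C3, AKR1C4, UCN3, TUBAL3 and NET1. The 7 that are no members ranged from −0.22 in AKR1C6P to 0.17 in LINC00705 in MDVR minus parental, with a median of 0.041. In AbiR minus parental they ranged from −0.14 to 0.058. The probe set of AKR1C6P, 224070_at, was at 0.070 on the parental, −0.15 on the MDVR and −0.070 on the AbiR array.

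AKR1B10 and AKR1D1 lie on chromosome 7. The 12 nearest measured genes there, 3 on each side of each, ranged from −0.77 in SLC35B4 to 0.24 in LRGUK in MDVR minus parental. In AbiR minus parental they ranged from −0.29 in SLC35B4 to 0.75 in CALD1. None of these 12 reached 2-fold, and neither did AKR1B10 or AKR1D1.

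**Figure D3:**
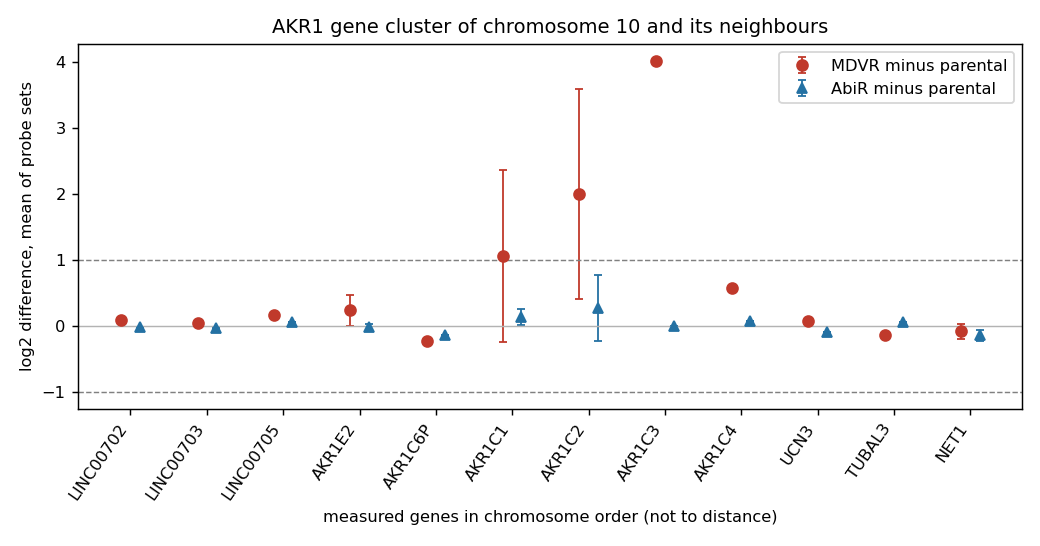
Log2 difference from parental for the members on chromosome 10 and their nearest measured genes, in chromosomal order and not to distance. MDVR and AbiR are separate points, with bars for the SD between probe sets where a gene has several. On chromosome 10 the differences in MDVR are highest at AKR1C1, AKR1C2 and AKR1C3, at 1.06, 2.00 and 4.02, followed by AKR1C4 at 0.57.

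The genes whose pair of differences from parental lay nearest to that of AKR1C3 were LAMB1, HGF, UBE2L6, CD200 and DAPK1, by Euclidean distance over 2 log2 differences. LAMB1, which encodes a laminin chain, was at 3.96 ± 0.53 in MDVR and 0.17 in AbiR, a distance of 0.17. HGF, the ligand of the MET receptor, was at 3.87 ± 1.83 over 5 probe sets and 0.12, a distance of 0.18. UBE2L6, an enzyme of ISG15 conjugation, was at 3.52 and 0.28, and CD200, a membrane glycoprotein, at 3.63 ± 1.33 and 0.48. DAPK1, a death-associated kinase, was at 4.64 ± 2.09 in MDVR and −0.050 in AbiR. Likeness over 3 arrays rests on 2 numbers per gene and is a description.

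Genes of the pathways around the family were then taken as fixed lists. Of the other aldo-keto reductases, which include aflatoxin aldehyde reductases and potassium channel beta subunits, 5 of 6 were measured and 0 reached 2-fold in either resistant line. They ranged from −0.16 to 0.40 in MDVR minus parental with a median of 0.041, and their median in AbiR minus parental was 0.0049.

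Of the androgen synthesis and conversion genes, 31 of 34 were measured. In MDVR minus parental 1 was at least 2-fold higher and 3 were lower, and the same counts held in AbiR minus parental, with medians of 0.019 and 0.030. HSD17B14, a hydroxysteroid dehydrogenase, was at 1.02 ± 0.18 in MDVR and 0.62 ± 0.12 in AbiR. CYP11A1, which starts steroid synthesis from cholesterol, was at −1.11 and −1.10. HSD17B6, which can return androstanediol to dihydrotestosterone, was at −0.61 ± 0.21 in MDVR and −1.01 ± 0.19 in AbiR. Of the glucuronosyltransferases that inactivate androgens, UGT2B28 was at −2.12 in MDVR and −1.77 in AbiR, and UGT2B17 at −1.49 in MDVR but 1.69 in AbiR, each with 1 probe set. UGT2B15, chosen with its values known, read −0.25 ± 0.18 and −0.072 ± 0.043 over 3 probe sets. These transferases are close paralogs, so that their signals could be mixed.

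3 more enzymes of androgen synthesis were chosen after their values were seen. HSD17B3, the testicular enzyme that makes testosterone from androstenedione as AKR1C3 does, was at 0.0049 in MDVR and −0.0032 in AbiR. CYP17A1, the target of abiraterone, was at 0.29 ± 0.18 and −0.099 ± 0.061. SRD5A1, which makes dihydrotestosterone, was at −0.30 ± 0.15 in MDVR and 0.15 ± 0.062 in AbiR. None reached 2-fold.

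All 26 prostaglandin genes were measured. 0 were 2-fold higher and 2 were lower in each resistant line, and the medians were 0.069 in MDVR minus parental and −0.090 in AbiR minus parental. PTGFR, the receptor for the prostaglandin F that AKR1C3 makes, was at −5.05 ± 0.46 in MDVR and −5.27 ± 0.50 in AbiR. ABCC4, an exporter of prostaglandins, was at −1.89 ± 1.02 and −2.15 ± 1.15. PTGFR and ABCC4 were thus lower in both resistant lines, while AKR1C3 was higher in MDVR and near parental in AbiR.

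Several AKR1 genes are textbook targets of NRF2, the regulator of the antioxidant response, and 27 of 29 genes of that pathway were measured. 0 were 2-fold higher and 1 was lower in MDVR minus parental, ME1, the malic enzyme, at −1.14 ± 1.27. In AbiR minus parental 0 were past 2-fold in either direction. The medians were 0.060 and −0.058. NQO1, a defining target named after its values were seen, was at −0.48 ± 0.12 in MDVR and 0.020 ± 0.048 in AbiR. HMOX1, the heme oxygenase, also named after its values were seen, had the highest value of the list in MDVR, 0.996, just under 2-fold.

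Of the retinoid and aldehyde genes, whose substrates AKR1B10 shares, 19 of 22 were measured. In MDVR minus parental 2 were 2-fold higher and 0 lower, with a median of 0.19. These were ALDH2, the mitochondrial aldehyde dehydrogenase, at 2.05, and DHRS3, a retinaldehyde reductase, at 1.77. In AbiR minus parental they were at 0.57 and 0.82, 0 genes reached 2-fold, and the median was 0.053. In the polyol and fructose pathway 7 of 9 genes were measured, and ALDOC, an aldolase, was the 1 gene 2-fold higher in MDVR, at 1.92, and was at 0.38 in AbiR. Medians there were 0.10 and 0.11.

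Of the bile acid genes around AKR1D1, 12 of 15 were measured. 0 reached 2-fold in MDVR minus parental, and 1 was lower in AbiR minus parental. That gene was ACOX2, a peroxisomal oxidase of bile acid intermediates, at −1.76 in AbiR and −0.96 in MDVR. The medians were −0.13 and −0.078.

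**Figure D4:**
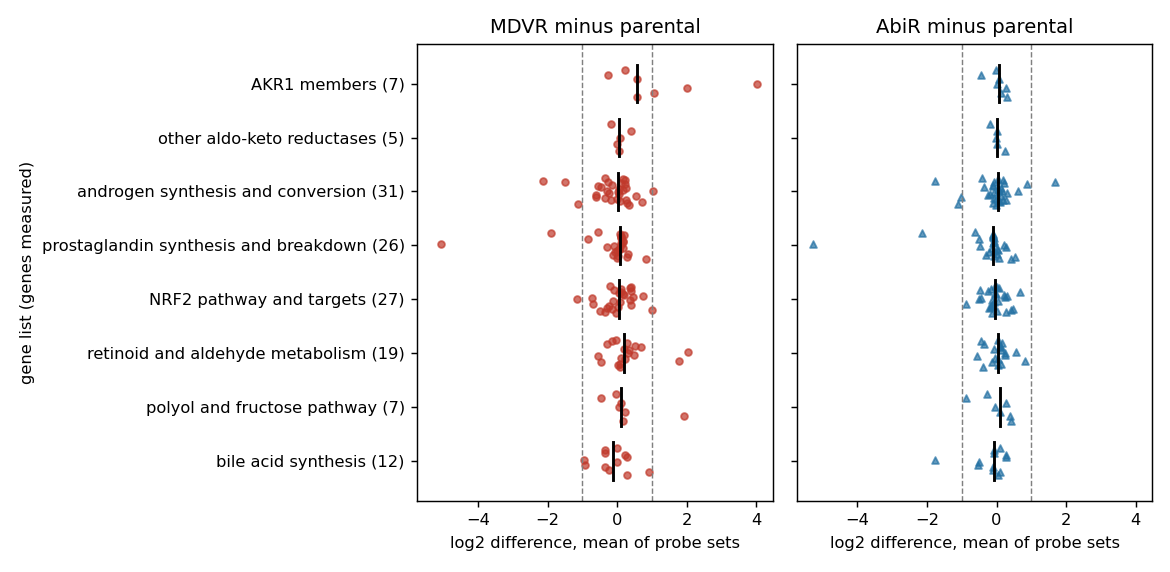
Log2 difference from parental of every measured gene of the 7 lists and of the family 1 members, in MDVR and in AbiR, 1 point per gene with the median of each list. The median of the members is 0.57 in MDVR and 0.084 in AbiR, while the medians of the lists lie between −0.13 and 0.19. Without the _x_at probe sets of AKR1C1 and AKR1C2, not drawn so here, the members' median is 0.30 in MDVR and 0.0055 in AbiR.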

How the data were processed

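RNA of the parental cells and both resistant sublines was hybridised to 3 arrays, 1 per line, and the labels gave the groups. The authors deposited log2 values made with RMA, as the submitters' processing notes name it, with its version not given in the sources used here. The deposited log2 values had been centred for each probe set. In 100% of probe sets the values were possible under a centring on the median of 4 arrays (tolerance 2e-06). Which arrays entered the centring is not given in the sources used here.

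Names came from the platform annotation, in which 41097 probe sets had 1 symbol, 1801 several and 11721 none. A gene was the mean of its single-gene probe sets, without a filter on signal. Log2 differences were taken for 3 comparisons, and genes at least 2-fold apart were counted. With 1 array per group no test was made, and the number of arrays limits the precision. 45 spiked bacterial controls gave a technical scale. Members and lists were chosen with earlier results of these data known. Named were all members, list genes at least 2-fold apart against parental (at most the 3 highest and 3 lowest of a list), the 5 genes nearest to AKR1C3 and the 3 nearest measured genes on each side of a member. The cell type markers were named too. HSD17B3, CYP17A1, SRD5A1, UGT2B15, NQO1 and HMOX1 were added after their values were seen. 6 alternatives were planned and 1 was added after seeing the data. Python 3.11.15, pandas 2.3.3, numpy 2.4.6 and matplotlib 3.10.9 were used.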

Additional observations from a re-analysis of the deposited data

Results flagged for a closer look

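13 genes, among the members, the cell type markers, the genes nearest to AKR1C3 and the pathway genes named with their values, lay above parental in one resistant line and below it in the other. These differences were not tested because each line had 1 array, and each gap below is MDVR minus AbiR on the log2 scale. For AKR1E2 (0.24 in MDVR and −0.012 in AbiR), FOLH1 (0.21 and −0.13), CHGA (0.013 and −0.26), SERPINA1 (0.15 and −0.11) and HSD17B3 (0.0049 and −0.0032) the gaps of 0.25, 0.3396, 0.2688, 0.2549 and 0.008111 were no larger than the largest spiked control difference in that comparison, 0.34. The AbiR value of AKR1E2 was 0.00028 with the median of probe sets, so its sign there was not stable. CYP17A1 (0.29 and −0.099) had a gap of 0.3912, KRT14 (0.0061 and −0.40) of 0.4043, ALB (0.48 and −0.058) of 0.54 and TTR (0.19 and −0.54) of 0.7317. SRD5A1 was at −0.30 and 0.15, a gap of −0.4497, and NQO1 at −0.48 and 0.020, a gap of −0.5016. 2-fold was passed by DAPK1, at 4.64 and −0.050 with a gap of 4.691, and by UGT2B17, at −1.49 and 1.69 with a gap of −3.178.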

How the results depend on the processing

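The count of AKR1 genes at least 2-fold apart in MDVR minus parental was 1 in place of 3, with AKR1C3 left, when probe sets with the suffix _s_at, _x_at or _a_at were left out (6 genes measured, AKR1B10 having no value) and again when the _x_at probe sets alone were left out, an alternative chosen after seeing the data. In MDVR minus AbiR both settings gave 1 in place of 2. The other alternatives, namely a 1.5-fold threshold, arrays centred on the median or on the spiked controls, the median of probe sets and the shared probe set included, gave 2 or 3 genes in these comparisons, and all 7 alternatives gave 0 in AbiR minus parental. AKR1C1 fell below 2-fold in MDVR minus parental with the median of probe sets, at 0.32, and with the shared probe set included. Of 123 gene values under the alternatives, 5 moved by more than the SD between the probe sets of the gene. For genes with 1 probe set the SD of the spiked controls stood in. These genes could not move where an alternative only left out or combined probe sets, so the count says little on stability. The SD of AKR1C1 in MDVR minus parental was 1.30, so its fall from 1.06 to 0.16 without the _x_at probe sets was not counted. Of the 123 values 2 changed sign, both near 0 in AbiR minus parental, AKR1C3 at −0.013 and AKR1E2 at 0.00028. No value past 2-fold changed direction. Centring moved the differences by at most 0.032. No paired analysis was possible because each group had 1 array. Without a level, signal over background could not be judged.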
